A study of Mus musculus with 9 samples.

Results

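The genes described here are 39 mouse genes of DNA repair, chosen by name for their roles in base excision, nucleotide excision, mismatch and double-strand break repair. The deposited table has 17527 gene symbols, and 38 of the 39 are rows of it under the listed symbol. H2afx, the gene of histone H2A.X, is listed there under its newer symbol H2ax, a match taken from RefSeq synonyms. All 39 passed the filter on low counts that left 13711 genes. No member was chosen by its measured level, though members and gene lists were chosen with earlier results of these data known. Expression was measured by RNA sequencing in mouse anterior lens capsule, the front basement membrane of the lens with its epithelial sheet. The 3 groups, of 3 libraries each, were young control mice, old control mice (aged control below) and old mice treated with epigallocatechin gallate, a green tea catechin (aged EGCG below). The labels used here state no strain, no age beyond old and young, and no dose, route or duration. Whether the 3 libraries of a group are separate animals is not stated either, so p-values reflect how far these libraries scatter, and that scatter may be technical. The question is which repair transcripts differed with age, and which differed between treated and untreated aged capsule.

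DNA repair is divided by the kind of lesion. Base excision repair removes oxidised, deaminated and alkylated bases and mends single-strand breaks. Nucleotide excision repair cuts out a short stretch around bulky and ultraviolet-induced lesions. Mismatch repair corrects replication errors, and double-strand breaks are signalled by large kinases and closed by end joining or homologous recombination. In the lens the epithelium is the layer that keeps its nuclei and can divide, and it is exposed to light and to oxidants, so repair in these cells has long been studied in relation to cataract.

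Library totals were 13184169 to 16528179 counts, and libraries of 1 group correlated with r of 0.9896 to 0.9928 across genes on log2(CPM + 1). CPM (a gene's count relative to its library total) are here scaled by TMM factors, which set the middle of the genes equal between libraries. Lens fibre markers took 19.1% to 19.3% of the counts in young control, 21.9% to 22.3% in aged control and at most 20.1% in aged EGCG libraries. Of 19 tested, 13 were called higher and 5 lower with age, and 14 were called lower with EGCG. Lens epithelium markers took 1.66% to 1.67%, 2.32% to 2.47% and 1.99% to 2.03%, and of 14 tested 8 were called higher and 4 lower with age, and 1 higher and 7 lower with EGCG. No gene of either list was at 0 in every library. Retinal markers were also present. The 30 genes of that list took 3.30% to 3.33% of the counts in young control, 0.224% to 0.236% in aged control and 1.31% to 1.32% in aged EGCG libraries, and 30 of 30 were called lower with age and 29 of 30 higher with EGCG. Red blood cell markers were called lower with age in 5 of 5 tested genes and higher with EGCG in 4. Of 13 endothelial and mural markers 9 were lower and 1 higher with age, and of 9 pigment epithelium markers 5 and 2. Corneal epithelium markers took 0.0259% to 0.0268% of the counts in young control and 0.0966% to 0.102% in aged control libraries. Only 4 of them were tested, of which 2 were called higher and 2 lower with age. Over all genes 33.8% were called lower and 35.4% higher with age. The part of these other cell types in the results below was not tested. In bulk tissue, fewer cells of a type and less RNA per cell cannot be told apart.

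The repair transcripts differed widely in level. On the authors' deposited FPKM, which are scaled to gene length, Ddb1 stood highest in young control libraries at 85.9 ± 0.735 (SD, n = 3). Its protein is the adaptor of a ubiquitin ligase as well as a partner of Ddb2 in damage recognition. Next came Xpa at 28.8 ± 1.41, Apex1 at 17.5 ± 1.44, Ercc2 at 16.1 ± 0.686 and Parp1 at 14.9 ± 0.972. From Apex1 to Parp1, neighbours in this order differed by about their spread. At the other end were Chek1 at 0.153 ± 0.0892, Chek2 at 0.264 ± 0.112, Ung at 0.34 ± 0.196 and Brca2 at 0.68 ± 0.0579 FPKM. Chek1, Chek2 and Ung differed by about their spread or less. The order changed with age. Xpa reached 76.4 ± 4.8 FPKM in aged control, next to 70.1 ± 3.93 for Ddb1, while Ercc2 was at 4.7 ± 0.506.

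**Figure D1:**
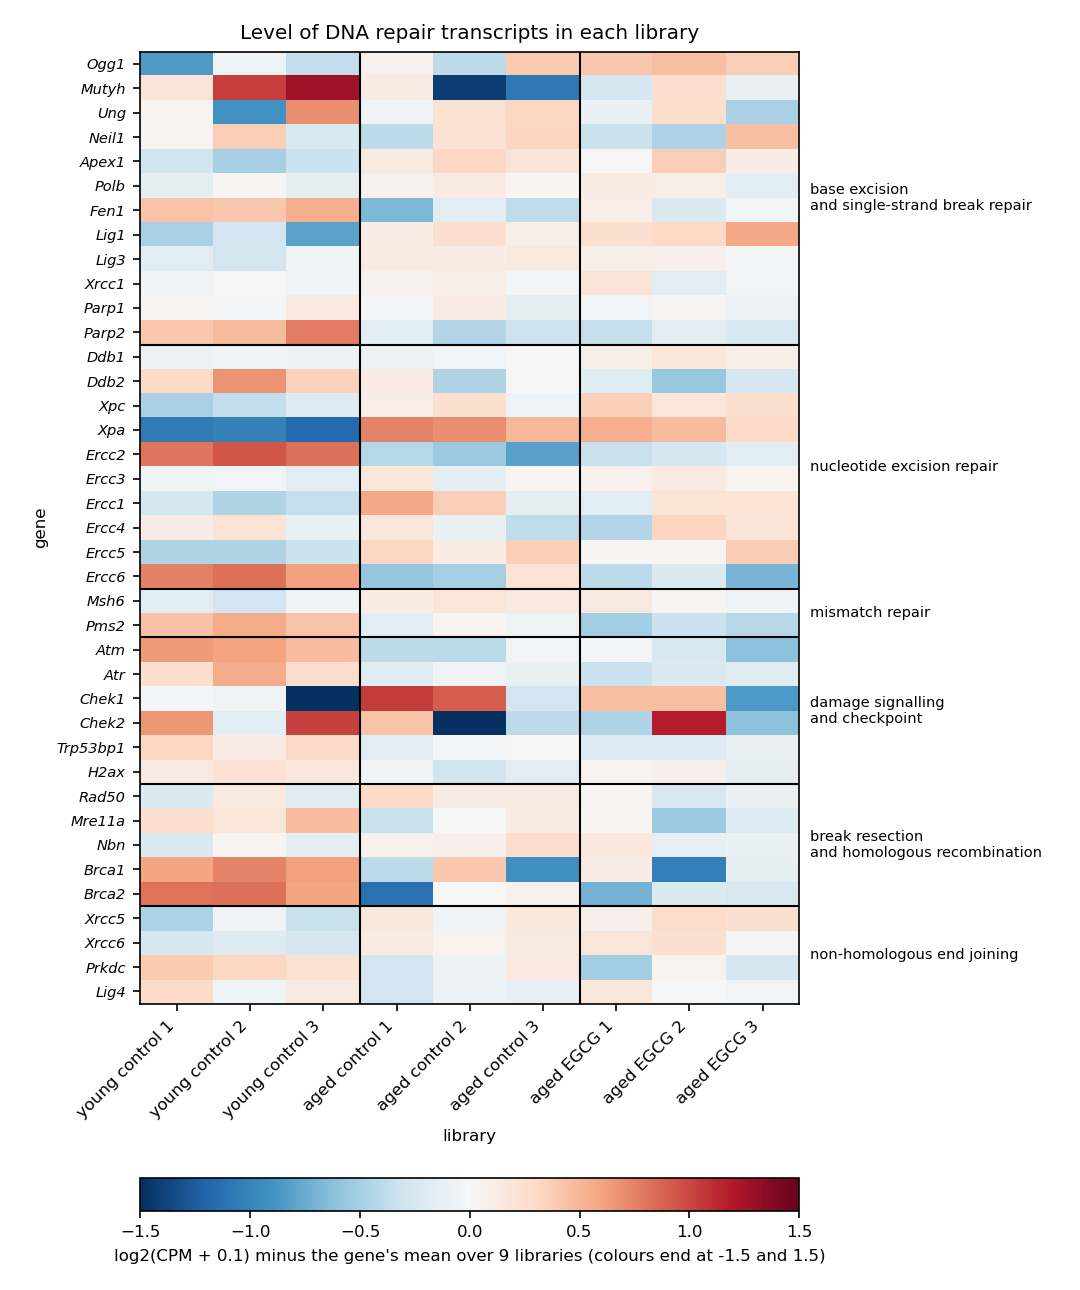
Rows are the 39 repair genes in 6 groups by role and columns the 9 libraries; colour is log2(CPM + 0.1) minus the gene's own mean over the libraries. Xpa is low in the 3 young control libraries and high in the other 6, and Ercc2, Ercc6, Atm, Brca1 and Brca2 run the other way.

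Between aged and young control, 24 of the 39 repair genes were called changed, 10 higher and 14 lower. A call is an adjusted p under 0.05 in edgeR's quasi-likelihood test, with Benjamini-Hochberg adjustment over all genes tested. That is 61.5%, below the 69.2% of all genes tested, of which 35.4% were higher and 33.8% lower. Their median log2 fold change was 0.00, beside 0.02 over all genes. The libraries of the groups did not overlap for 27 of the 39 (69.2%), beside 72.1% of all genes. The direction of calls moved with the scaling, since the median of all genes was −0.30 under library-size scaling and −0.31 when lens fibre genes were held level (fibre scaling below). Under fibre scaling 3 repair genes were higher and 20 lower, where 20.6% and 47.1% of all genes were. Under library-size scaling 4 rose and 19 fell. In the alternatives run, 9 of the 24 calls held in all 18: Xpa, Lig1 and Ercc5 rose, and Atm, Ercc2, Ercc6, Fen1, Mutyh and Parp2 fell.

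**Figure D2:**
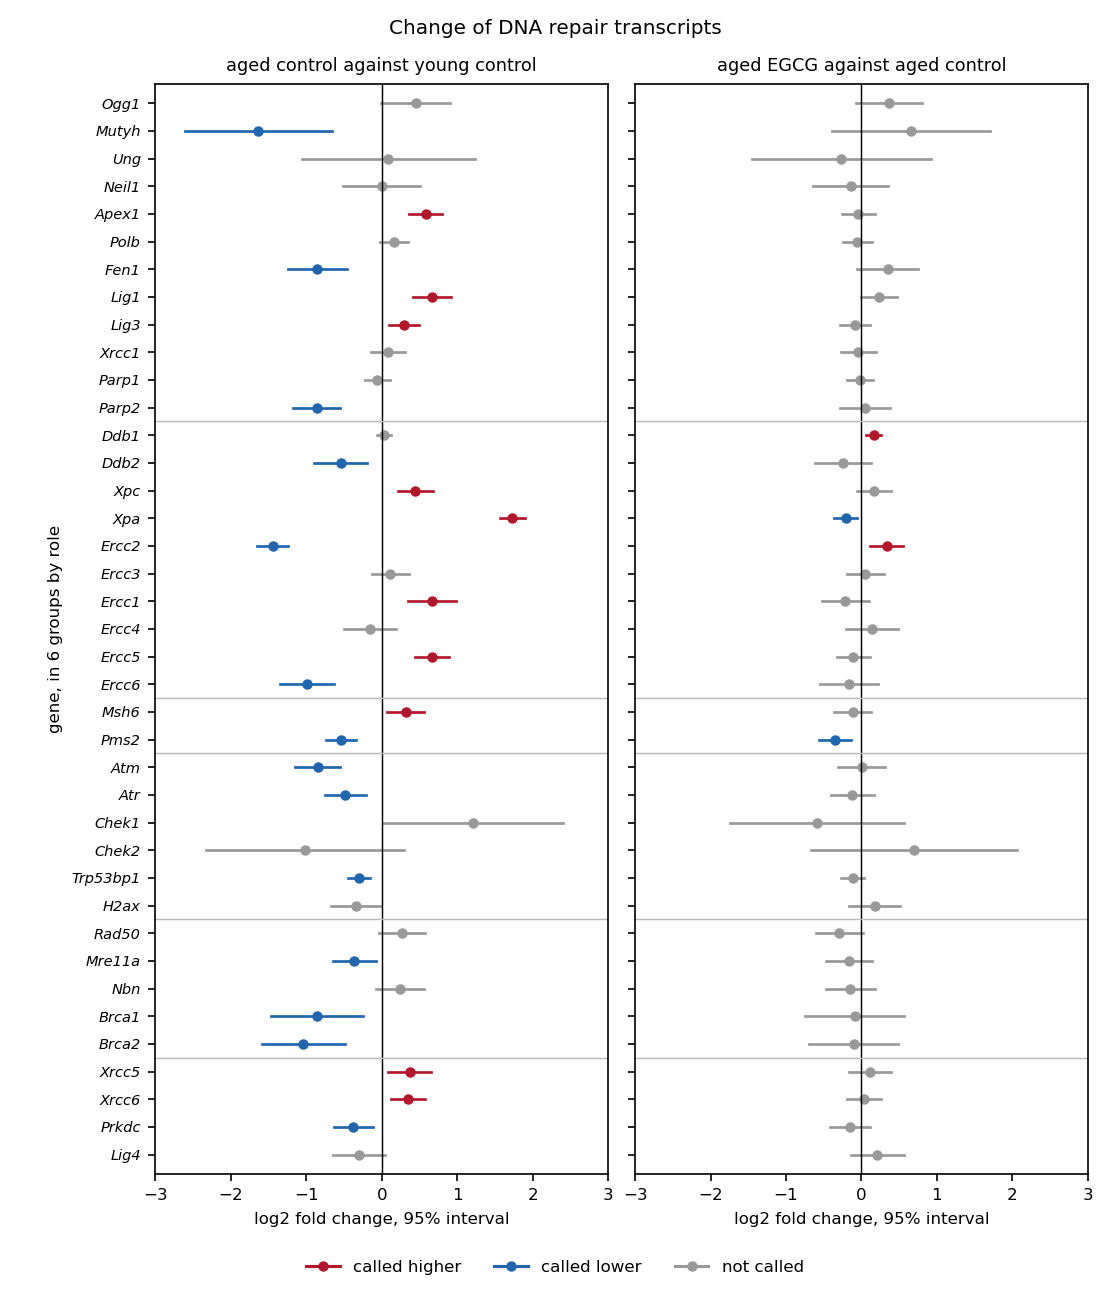
Points are log2 fold changes of the 39 repair genes with 95% intervals, aged against young control on the left and aged EGCG against aged control on the right; red is called higher, blue lower and grey not called. On the left 24 genes are called, from Xpa at 1.73 to Mutyh at −1.64, and on the right 4 are, from Ercc2 at 0.34 to Pms2 at −0.35.

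The nucleotide excision group held the calls with the smallest adjusted p in both directions. Xpa, the scaffold that checks the lesion and positions the other factors (chromosome 4, 46155347 to 46196311, minus strand, protein coding, GRCm38), had 24.8, 25.5 and 23.0 CPM in the young control libraries. Aged control libraries had 86.5, 83.5 and 73.1 CPM. All 3 aged libraries thus lay far above all 3 young ones. The rise was 3.32-fold (log2 fold change 1.73, SE 0.0836, 95% interval 1.564 to 1.9, edgeR adjusted p = 3.23e-23) and ran from 1.24 to 1.81 over the 18 alternatives. Ercc2, the XPD helicase of transcription factor TFIIH, which opens the DNA around a lesion (chromosome 7, 19382010 to 19395694, plus strand, protein coding), went the other way. It had 49.1, 53.8 and 50.1 CPM in young control and 20.9, 19.1 and 16 CPM in aged control libraries, again without overlap. The fall was 2.73-fold (log2 fold change −1.45, SE 0.102, edgeR adjusted p = 3.7e-17). Exons of Ercc2 share 744 bases with Klc3 on the other strand, and whether the counting used strand is not stated, so reads of the pair could not be told apart. Klc3 itself, named for this overlap, had a log2 fold change of −0.34 with age.

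The promoters of Xpa and Ercc2 are printed because these genes had the smallest adjusted p of the rises and of the falls with age, and that of Brca2 for its E2F match. RefSeq gives them for GRCm38.p6 as 250 bases before and 50 after the start, 5′ to 3′ on the gene's strand, at chr4:46196262-46196561 (minus), chr7:19381767-19382066 (plus) and chr5:150522371-150522670 (plus). Capitals mark matches on either strand to any of 4 motifs, which may overlap. The GC box was searched as GGGCGG. The CCAAT box was searched by the letters of its name. For the E-box the letters were CACGTG. The E2F site was searched as TTTCCCGC.
Xpa: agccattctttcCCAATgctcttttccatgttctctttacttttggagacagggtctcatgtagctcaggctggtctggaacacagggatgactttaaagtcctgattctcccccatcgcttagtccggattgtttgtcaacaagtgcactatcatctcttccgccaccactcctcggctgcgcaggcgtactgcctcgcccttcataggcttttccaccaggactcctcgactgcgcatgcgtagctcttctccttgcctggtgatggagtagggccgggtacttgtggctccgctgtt
Ercc2: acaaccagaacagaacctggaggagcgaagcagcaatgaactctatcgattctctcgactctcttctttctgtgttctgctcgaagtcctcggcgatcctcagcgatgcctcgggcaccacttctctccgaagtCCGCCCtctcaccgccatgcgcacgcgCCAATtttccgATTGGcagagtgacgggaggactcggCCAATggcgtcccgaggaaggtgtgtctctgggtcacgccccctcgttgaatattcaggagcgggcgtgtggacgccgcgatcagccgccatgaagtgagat
Brca2: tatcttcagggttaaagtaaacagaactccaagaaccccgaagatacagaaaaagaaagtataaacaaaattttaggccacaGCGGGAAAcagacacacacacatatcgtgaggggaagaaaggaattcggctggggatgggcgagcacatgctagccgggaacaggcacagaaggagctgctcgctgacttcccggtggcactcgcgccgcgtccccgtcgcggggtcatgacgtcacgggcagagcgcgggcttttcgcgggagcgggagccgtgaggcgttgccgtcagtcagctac
The Xpa window held 1 CCAAT match and 12 CpG dinucleotides. That of Ercc2 held 3 CCAAT matches, 1 GC box and 27 CpG, and that of Brca2 a lone E2F match with 25 CpG. Promoters were found for 31 repair genes, with a median of 22 CpG, beside 21 over 10886 tested genes. The CCAAT box occurred in 16 of the 31 (51.6%, beside 38.8% of all), the GC box in 18 (58.1%, beside 64.3%), the E-box in 7 (22.6%, beside 9.99%) and the E2F letters in 4 (12.9%, beside 2.05%). Those last 4 were Chek2, Brca2, Xrcc6 and Msh6, of which Xrcc6 and Msh6 rose with age, Brca2 fell and Chek2 was not called. The matches are descriptions of letters, not of binding.

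Of the 10 nucleotide excision genes, 4 rose, 3 fell and 3 were not called with age (70.0% called, beside 69.2% of all genes). Ercc5, the XPG nuclease that cuts 3′ of the lesion, had 18.1, 18.2 and 19.9 CPM in young and 30.7, 26.9 and 32.0 CPM in aged control, with no overlap. Its rise was 1.59-fold (edgeR adjusted p = 1.03e-06). Ercc1, the partner of the nuclease that cuts on the 5′ side, rose 1.59-fold from 10.3 ± 0.656 to 16.3 ± 3.91 CPM (adjusted p = 0.000229). Ercc4, which encodes XPF, the catalytic partner of Ercc1, was not called, at 12.5 ± 1.41 and 11.3 ± 2.21 CPM, but was called lower under library-size scaling (−0.47) and fibre scaling (−0.49). The recognition factor Xpc rose 1.36-fold, from 17.6 ± 1.82 to 23.9 ± 2.49 CPM (adjusted p = 0.000775). Both the Ercc1 and the Xpc call were lost under library-size and fibre scaling and in both limma fits on FPKM, and that of Ercc1 also with the length trend removed.

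Ercc6, the CSB protein that acts where RNA polymerase stalls at a lesion, had 16.4, 17.2 and 14.8 CPM in young control and 6.46, 6.81 and 11.1 CPM in aged control libraries. The highest aged library stayed below the lowest young one, and the fall was 1.99-fold (edgeR adjusted p = 3.05e-06). Ddb2, which binds ultraviolet lesions in chromatin, fell 1.46-fold from 13.1 ± 1.99 to 9.02 ± 1.79 CPM (adjusted p = 0.00562). That call rested on single libraries, with adjusted p = 0.066 without young control replicate 2 and 0.0693 without aged control replicate 2. Its partner Ddb1 was level at 325 ± 4.39 and 331 ± 10.1 CPM (95% interval of the log2 fold change −0.068 to 0.121). Ddb1 was called lower under library-size scaling (−0.29) and fibre scaling (−0.31), and higher with the length trend removed (0.11, adjusted p = 0.0194). Ercc3, the XPB helicase of TFIIH, had 17.2 ± 0.765 and 18.6 ± 1.96 CPM (95% interval −0.13 to 0.362, not called), so the helicase pair of TFIIH did not move together.

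In base excision repair 3 of 12 genes rose, 3 fell and 6 were not called with age (50% called, beside 69.2% of all genes). Among the glycosylases that remove damaged bases, Mutyh, which takes out adenine opposite oxidised guanine, was at 2.44 ± 0.889 CPM in young and 0.774 ± 0.525 in aged control. The fall was 3.11-fold (log2 fold change −1.64, 95% interval −2.613 to −0.663, edgeR adjusted p = 0.00268), on 6 to 52 counts a library. Ogg1, the glycosylase for oxidised guanine itself, had 4.99 ± 1.35 and 6.84 ± 1.84 CPM and was not called (adjusted p = 0.0729), but adjusted p was 0.0246 without young control replicate 2 and 0.0157 without aged control replicate 2. Neil1, a glycosylase for oxidised pyrimidines, had 6.22 ± 1.3 and 6.23 ± 1.55 CPM. Ung, the uracil glycosylase, had 6 to 22 counts a library, and its 95% interval of −1.058 to 1.231 does not exclude a 2-fold change in either direction.

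The genes that act after the glycosylases follow. Apex1, the endonuclease that nicks the abasic site, rose 1.5-fold from 20.3 ± 1.55 to 30.5 ± 1.94 CPM (edgeR adjusted p = 7.36e-06), a call lost under fibre scaling and with the length trend removed. Lig1, the ligase of long-patch repair and of replication, had 14.9, 17.3 and 12 CPM in young and 22.7, 25.1 and 22.3 CPM in aged control libraries. The groups did not overlap, and the rise was 1.59-fold (adjusted p = 9.28e-06). Fen1, the flap nuclease that works with Lig1, fell 1.81-fold, from 9.96, 9.78 and 10.8 CPM to 4.61, 6.60 and 5.65 CPM (adjusted p = 0.000134). So these partners of the long-patch branch moved in opposite directions, each without overlap. Lig3, the ligase of the short-patch branch, rose 1.23-fold (adjusted p = 0.00613), but its change was −0.023 under library-size and −0.035 under fibre scaling, and without young control replicate 2 adjusted p was 0.0508. Its scaffold Xrcc1 and the gap-filling polymerase Polb were not called, at 22.0 ± 0.556 and 23.3 ± 1.11 CPM, and at 32.7 ± 2.07 and 36.6 ± 1.29 CPM. Under fibre scaling Xrcc1 was called lower (−0.26). Exons of Fen1 share 1909 bases with Gm10143 and 130 with Tmem258 on the other strand, and those of Lig1 247 with Zswim9. Those of Apex1 share 877 bases with Pip4p1 and those of Lig3 1826 with Rffl, also on the other strand. With age the log2 fold change was 0.62 for Zswim9, beside 0.66 for Lig1. It was 0.50 for Tmem258, 0.04 for Pip4p1 and −0.05 for Rffl. The use of strand in counting is not stated, so the counts of these repair genes are uncertain to that extent, and the part of shared reads was not tested.

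The poly(ADP-ribose) polymerases, which sense strand breaks, also parted. Parp2 had 14.6, 15.3 and 18.8 CPM in young control and 9.83, 8.09 and 8.83 CPM in aged control libraries. Every aged library lay below every young one, and the fall was 1.82-fold (edgeR adjusted p = 4.29e-06). Parp1, the more abundant enzyme, had 48.4 ± 2.95 and 46.3 ± 3.94 CPM and was not called (95% interval −0.228 to 0.104), though it was called lower under library-size scaling (−0.38) and fibre scaling (−0.40). Of the mismatch repair genes, Msh6, a subunit of the mismatch-binding complex, rose 1.25-fold from 16.3 ± 1.26 to 20.3 ± 0.514 CPM (adjusted p = 0.0186). That change was −0.0044 under library-size and −0.017 under fibre scaling, and was not called without young control replicate 2 (adjusted p = 0.099). Pms2, a subunit of the endonuclease that follows, fell 1.45-fold from 40.6 ± 1.9 to 27.9 ± 1.9 CPM (adjusted p = 3.91e-06).

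**Figure D3:**
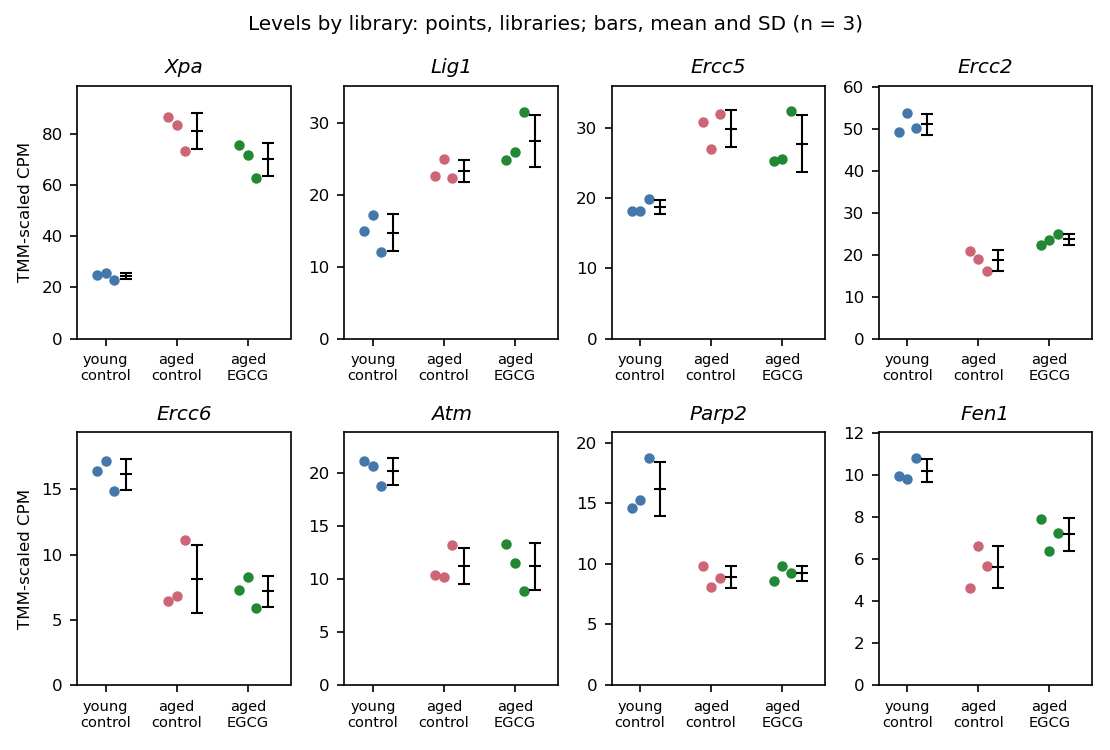
TMM-scaled CPM of 8 repair genes in each library, grouped as young control, aged control and aged EGCG; points are libraries and bars the mean and SD of 3. In each panel the young control points lie clear of the aged control points, above for Ercc2, Ercc6, Atm, Parp2 and Fen1 and below for Xpa, Lig1 and Ercc5.

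In damage signalling 3 of 6 genes fell with age and the other 3 were not called (50% called). In end resection and homologous recombination 3 of 5 fell and the rest were not called (60%). Both shares are below the 69.2% of all genes called in either direction, but above the 33.8% of all genes called lower. They rest on only 6 and 5 genes. Atm, the kinase that answers double-strand breaks (chromosome 9, 53439149 to 53536740, minus strand, protein coding), had 21.1, 20.6 and 18.7 CPM in young control. Aged control libraries had 10.3, 10.2 and 13.2 CPM, all below the young ones. The fall was 1.80-fold (log2 fold change −0.85, SE 0.147, edgeR adjusted p = 1.97e-06). Atr, the kinase for stalled forks and single-stranded DNA, fell 1.40-fold from 18.5 ± 2.34 to 13.2 ± 0.617 CPM (adjusted p = 0.00164). Trp53bp1, which directs breaks to end joining and whose exons share 2130 bases with Tubgcp4 on the other strand, fell 1.23-fold from 71.7 ± 5.06 to 58.1 ± 3.32 CPM (adjusted p = 0.000315). With the length trend removed the changes of Atr and Trp53bp1 were 0.0099 and 0.15, the latter called higher (adjusted p = 0.0478).

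The checkpoint kinases Chek1 and Chek2, which act below Atr and Atm, had 3 to 25 and 2 to 23 counts a library. Neither was called, with intervals of 0.019 to 2.398 and −2.331 to 0.3, and for Chek1 adjusted p was 0.0295 without aged control replicate 3. H2afx, whose protein is phosphorylated around breaks, had 10.8, 11.5 and 11.1 CPM in young and 9.49, 8.02 and 8.75 CPM in aged control. Its libraries did not overlap but the gene missed the threshold (log2 fold change −0.35, adjusted p = 0.0587). It was called lower in 7 of the 18 alternatives.

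Brca1 and Brca2, which load the recombinase at resected breaks, fell. Brca2 (chromosome 5, 150522630 to 150570329, plus strand, protein coding) had 7.12, 7.17 and 6.11 CPM in young and 1.79, 3.98 and 4.18 CPM in aged control, a fall of 2.06-fold (edgeR adjusted p = 0.000788). Brca1 had 5.23, 5.86 and 5.31 CPM in young and 2.61, 4.58 and 1.78 CPM in aged control, a fall of 1.81-fold (adjusted p = 0.0116, and 0.0904 without aged control replicate 3). Both genes had no overlap between groups, and both calls were lost with the length trend removed (adjusted p = 0.0564 for Brca2 and 0.0769 for Brca1). Within the complex that holds and trims broken ends, Mre11a, the nuclease, fell 1.29-fold (adjusted p = 0.0221, but 0.139 without young control replicate 3 and 0.17 without aged control replicate 1). Rad50, the tether, and Nbn, the adaptor, were not called, with log2 fold changes of 0.27 and 0.24, and Rad50 had adjusted p = 0.0431 without young control replicate 2.

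In non-homologous end joining the DNA-binding Ku subunits and the kinase they recruit differed in direction. Xrcc6, or Ku70, rose 1.27-fold from 18.6 ± 0.461 to 23.6 ± 0.711 CPM (edgeR adjusted p = 0.00632). Xrcc5, or Ku80, rose 1.29-fold from 12 ± 1.85 to 15.5 ± 1.29 CPM (adjusted p = 0.0191). The Xrcc5 libraries overlapped, and adjusted p was 0.12, 0.0616, 0.0547 and 0.0509 without young control replicate 1 or 3 or aged control replicate 1 or 3. Prkdc, the catalytic subunit of DNA-dependent protein kinase, fell 1.3-fold from 25 ± 1.36 to 19.3 ± 2.9 CPM (adjusted p = 0.00796, and 0.0776 without aged control replicate 1). Lig4, the ligase of the pathway, had 10.3 ± 1.25 and 8.35 ± 0.634 CPM and was not called, but was called lower under library-size scaling (−0.62) and fibre scaling (−0.63). Neither Ku call held under library-size or fibre scaling.

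Gene length went with the change with age. Lengths implied by the counts and FPKM ran from 955 bases for Xpa to 13153 for Prkdc, with a median of 4133 beside 3722 over all genes. Of the 15 repair genes among the 4570 longest genes tested (5036 bases and over), 9 were lower and 3 higher, where 50.1% and 21.9% of those 4570 were. Of the 11 among the 4571 shortest genes, 4 were lower and 3 higher, where 17.9% and 50.5% of those 4571 were. Spearman's rho between length and log2 fold change was −0.30 over the 39 genes and −0.33 over 13711 genes, which share libraries and are not independent replicates. With each library's trend with length removed, 11 repair genes were higher and 8 lower, where 33.8% and 33% of all genes were. Besides Atr and Trp53bp1, the changes of Mre11a (0.11) and Prkdc (0.15) then turned positive and were not called, Pms2 was not called (−0.14, adjusted p = 0.201), and Rad50 (0.40) and Nbn (0.52) were called higher. Atm stayed lower in that fit, but its change shrank from −0.85 to −0.34 (adjusted p = 0.0333). Ercc6 also stayed lower with a smaller change than reported (−0.62, adjusted p = 0.00126). Ercc2, Fen1, Mutyh, Parp2 and Ddb2 stayed lower, each with a larger fall than reported. H2afx became a call (−0.76, adjusted p = 6.05e-05).

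**Figure D4:**
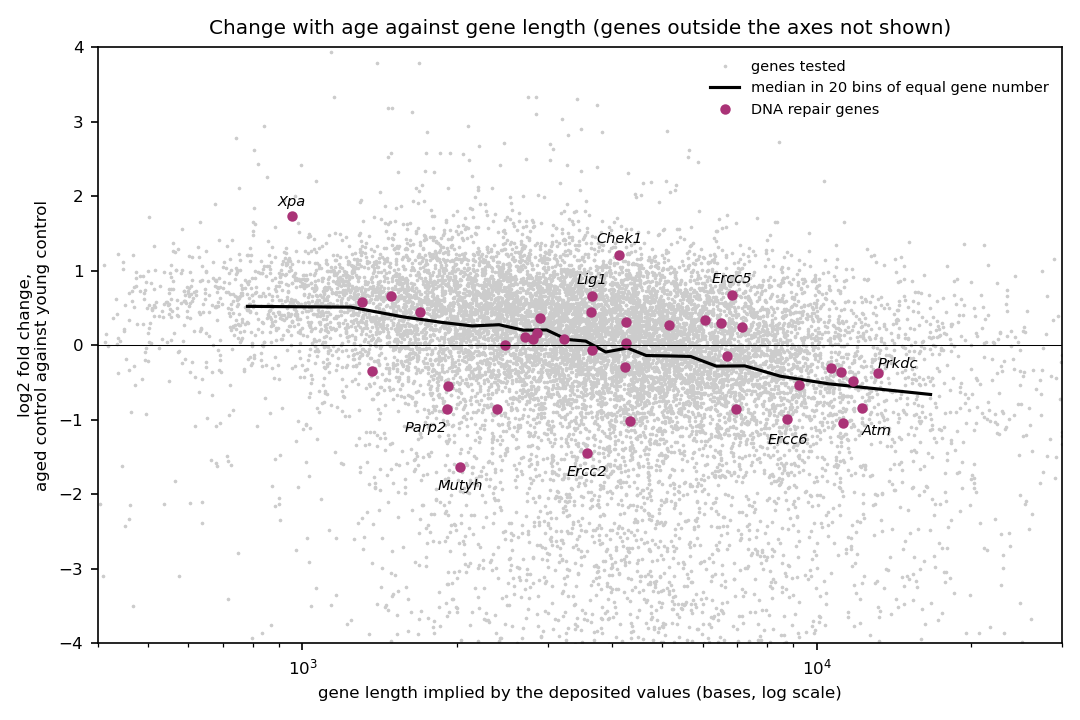
Each grey point is a tested gene and each purple point a repair gene, by implied length in bases (log axis) and log2 fold change of aged against young control; the black line is the median of all genes in 20 bins of equal gene number. The line falls from above zero for short genes to below zero for long ones, Xpa lies above it and Ercc2, Mutyh and Parp2 lie below.

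Of 106 further repair genes listed by role, 96 were tested, and 29 rose and 23 fell with age. That is 54.2% called, below the 69.2% of all genes, of which 35.4% were higher and 33.8% lower, and the counts by role are to be read against these shares. Among 23 nucleotide excision factors 11 rose and 2 fell, and the median log2 fold change was 0.19. Rad23b, a partner of Xpc, rose 1.66-fold from 128 ± 2.25 to 213 ± 13.6 CPM (edgeR adjusted p = 2.15e-16). Uvssa, which acts with the CSB protein, fell 2.31-fold (adjusted p = 1.68e-08). Of 15 base excision factors 7 rose and 4 fell. Smug1, another uracil glycosylase, fell 6.42-fold from 44.6 ± 0.493 to 6.9 ± 1.51 CPM (adjusted p = 7.26e-23), while the polymerase subunit Pold4 rose 3.87-fold. The 3 mismatch genes tested all fell, Mlh3 (1.67-fold), Msh3 (1.45-fold) and Pms1 (2.01-fold).

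Of 16 homologous recombination factors 5 fell and 2 rose, with Slx4, a nuclease scaffold, 2.01-fold lower and Rad51d 1.72-fold and Mus81 1.63-fold higher. Of 10 Fanconi anaemia genes, which act on crosslinks, 3 fell and 7 were not called, the 3 being Fance (2.16-fold), Fancg (4.48-fold) and Fancm (1.51-fold). Of 5 other end-joining genes Poll (1.79-fold) and Nhej1 (1.81-fold) rose. Of 12 signalling factors 4 rose and 3 fell, with Mdc1, the reader of phosphorylated H2A.X, 2.48-fold lower (edgeR adjusted p = 2.22e-13). Of 12 damage tolerance genes 3 rose and 3 fell, with the polymerase subunit Rev3l 2.29-fold and the helicase-like Hltf 2.46-fold lower. Markers of dividing cells took 0.0143% to 0.0146% of the counts in young control and 0.0117% to 0.0130% in aged control libraries. In aged EGCG libraries they took 0.0127% to 0.0131%. Of 29 tested, 4 rose and 1, Ccna2 (4.43-fold), fell with age (17.2% called, beside 69.2% of all genes). Of 20 target genes of p53, the transcription factor that Atm and Chek2 activate, 16 rose with age and 1 fell. That is 85% called, beside 69.2% of all genes. Cdkn1a went from 1.58 ± 0.255 to 85.3 ± 6.77 CPM.

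Several repair genes lie close to a neighbour read from the other strand. A search by position, added after the data were examined, found a protein-coding gene on the opposite strand starting within 1000 bases for 14 of 39 repair genes (35.9%), beside 15.1% of 13548 tested protein-coding genes. In 12 cases the neighbour was tested, and in 5 both genes were called with age, 3 in the same direction and 2 in opposite ones. With 69.2% of all genes called with age, many pairs of any genes would both be called. The share of such pairs over all genes was not computed. Apex1 with Osgep (log2 fold change 0.26) and Xpc with Lsm3 (0.42) both rose, and Atm with Npat (−0.64) both fell. Pms2 and Fen1 fell while Aimp2 (1.49) and Tmem258 (0.50) rose. Aimp2, which starts 117 bases from Pms2, went from 10.6 ± 0.388 to 29.8 ± 3.5 CPM (edgeR adjusted p = 5.34e-15). Exons of 14 repair genes overlap a tested gene on the other strand, and their counts are uncertain to that extent, since the use of strand is not stated.

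Between aged EGCG and aged control libraries, 4 of 39 repair genes were called, 2 higher and 2 lower. That is 10.3%, where 24.1% of all genes were called, 13.8% higher and 10.3% lower. The median log2 fold change was −0.06, beside −0.00 over all genes, and the libraries of the groups did not overlap for 6 of the 39 genes (15.4%), beside 33.5% of all genes. The count fell to 2 without aged control replicate 2, aged EGCG replicate 2 or aged EGCG replicate 3. Under library-size scaling all of the 3 genes called were higher, and under fibre scaling all of 6 (Ddb1, Ercc2, Fen1, Lig1, Ogg1 and Xpc), where the median of all genes moved to 0.12 and 0.22. In the same comparison 29 of 30 retinal markers were higher and 14 of 19 lens fibre markers lower, and their part in these calls was not tested. None of the 4 was called in all 18 alternatives.

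Ddb1 had 321, 331 and 342 CPM in aged control and 363, 384 and 363 CPM in aged EGCG libraries. The groups did not overlap, and the rise was 1.12-fold (edgeR adjusted p = 0.0087, and 0.0764 without aged EGCG replicate 2). Ercc2 had 20.9, 19.1 and 16 CPM in aged control and 22.4, 23.5 and 25 CPM with EGCG, also without overlap. That rise was 1.26-fold (adjusted p = 0.0171, but 0.123 without aged control replicate 3 and 0.0672 without aged EGCG replicate 3), to a level still far below the 51.0 ± 2.49 CPM of young control. Klc3, whose exons overlap those of Ercc2, rose from 33.4 to 51.9 CPM (log2 fold change 0.64), and the part of shared reads was not tested.

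Pms2 had 26.1, 29.9 and 27.8 CPM in aged control and 20.4, 23.3 and 21.9 CPM with EGCG. Every EGCG library lay below every aged control library, and the fall was 1.28-fold (edgeR adjusted p = 0.00837). It was lost under library-size scaling (adjusted p = 0.108) and fibre scaling (0.376), in both limma fits (0.226 and 0.21) and without aged control replicate 2 (0.0568). Its neighbour Aimp2 fell as well (log2 fold change −0.48). Xpa went from 81.0 ± 7.04 to 70.0 ± 6.49 CPM, with overlapping libraries (log2 fold change −0.21, adjusted p = 0.0386). Of the 18 alternatives 10 lost that call, among them those without aged control replicate 1 (adjusted p = 0.184) or 2 (0.135) and without aged EGCG replicate 2 (0.06) or 3 (0.271), and under fibre scaling the change was 0.013.

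These 4 calls were 3 of 10 nucleotide excision and 1 of 2 mismatch genes (30% and 50%, beside 24.1% of all genes). The other 35 repair genes were not called with EGCG. Several of their intervals were narrow. Parp1 had a 95% interval of the log2 fold change of −0.19 to 0.147, Trp53bp1 of −0.267 to 0.038, Polb of −0.246 to 0.135 and Apex1 of −0.257 to 0.175. For Atm the change was 0.00 (95% interval −0.31 to 0.311), with 11.2 ± 1.69 CPM in aged control and 11.2 ± 2.23 with EGCG. Brca1 (−0.746 to 0.561), Brca2 (−0.694 to 0.487), Mutyh (−0.388 to 1.702), Chek1 (−1.739 to 0.559) and Chek2 (−0.669 to 2.064) had wide intervals, so a change of moderate size was not detectable at their counts. Fen1, at 7.16 ± 0.766 CPM with EGCG, and Lig1, at 27.5 ± 3.63, were not called (adjusted p = 0.229 and 0.177). Under fibre scaling both were called higher, with changes of 0.57 and 0.46. Lig1 was also called higher under library-size scaling (0.36). In both limma fits Fen1 (0.34 and 0.47) and H2afx (0.26 and 0.29) were called higher.

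**Figure D5:**
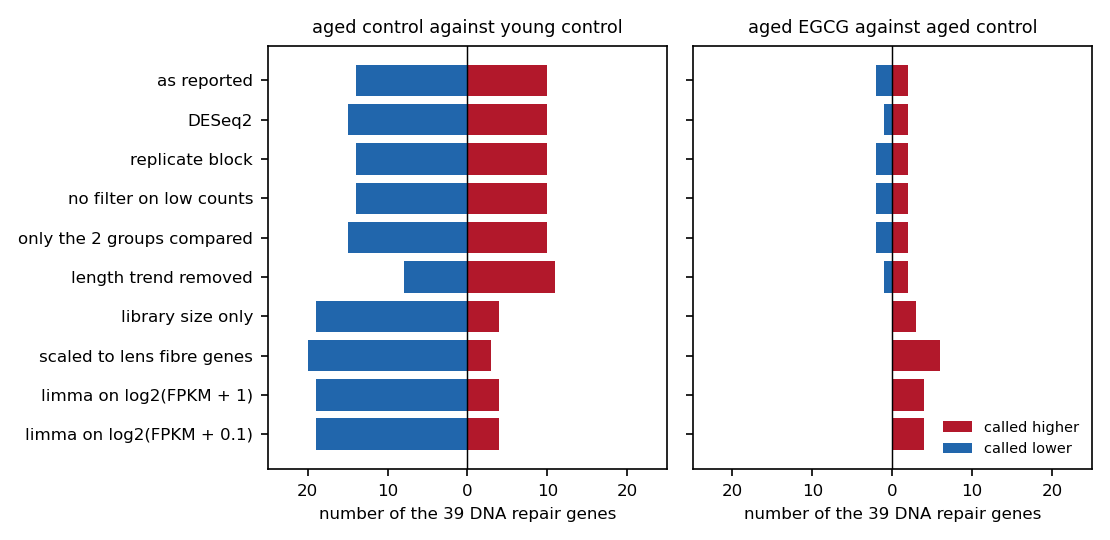
Bars count the repair genes called higher (red, right) and lower (blue, left) of 39 for the reported fit and 9 alternatives, for aged against young control and for aged EGCG against aged control. With age the split is 10 higher and 14 lower as reported and between 3 and 11 higher across the settings; with EGCG between 3 and 6 genes are called.

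Of the 96 further repair genes 3 rose and 4 fell with EGCG (7.29% called, below the 24.1% of all genes). Smug1 rose 2.25-fold to 15.6 ± 2.21 CPM (edgeR adjusted p = 4.5e-09), Fance 1.41-fold and Mdc1 1.39-fold. Wee1, the kinase that holds cells before mitosis, fell 1.75-fold, Cetn2, a part of the Xpc complex, 1.28-fold, Timeless, a fork protection protein, 1.15-fold and Ube2b 1.13-fold. Of the 29 dividing cell markers, Mki67 (2.62-fold) and Top2a (1.96-fold) fell with EGCG (adjusted p = 0.000321 and 0.00635), and the other 27 were not called. That is 6.9% called, again below the 24.1% of all genes.

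Aged EGCG against young control shares libraries with the comparisons above, and its values are set beside them. Here 23 of 39 repair genes were called (59%), 10 higher and 13 lower, where 63.6% of all genes were, 32.3% higher and 31.4% lower. These numbers became 6 and 16 under library-size scaling, and 8 and 14 under fibre scaling. All genes shifted likewise, to 3102 higher and 5569 lower under the former and 3577 and 4952 under the latter. Ogg1 had 3.59, 6.29 and 5.07 CPM in young control and 8.71, 9.05 and 8.51 CPM in aged EGCG libraries. All 3 treated libraries lay above the young ones, by 1.75-fold (edgeR adjusted p = 0.00145, and 0.0503 with the length trend removed), where aged control, at 6.84 ± 1.84 CPM, differed from neither group by the test. Xpc was 1.52-fold higher, Lig1 1.86-fold and Xpa 2.87-fold, and Ercc2 was 2.16-fold, Ercc6 2.24-fold, Pms2 1.85-fold and Atm 1.80-fold lower than in young control. Mutyh (log2 fold change −0.98, adjusted p = 0.0584) and Msh6 (0.20, adjusted p = 0.151) were not called in this comparison, though Mutyh was called lower in 7 of the 18 alternatives. Leaving out young control replicate 3 or aged EGCG replicate 2 ended the call of Fen1 as lower (adjusted p = 0.0716 and 0.0802). Without aged EGCG replicate 2 the calls of Ercc1 as higher and Brca1 as lower also ended (adjusted p = 0.0511 and 0.0712). Lig3 (0.21, adjusted p = 0.052) was not called but passed in 7 of the 18, among them those without young control replicate 3 (0.0341), any 1 of the aged control libraries (0.0439, 0.0481 and 0.0439) or aged EGCG replicate 3 (0.0378).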

How the data were processed

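Per the labels' protocols, libraries of mouse anterior lens capsule RNA were made with the SMARTER mRNA-Seq Library Prep Kit. The genome build was GRCm38 (mm10), per the submitters' processing notes, and the aligner, counter, annotation and strand setting were not given in the sources. The authors deposited raw whole-number counts for each gene symbol and FPKM, which equalled count over 1 length per gene and library total within 0.01% in all 138164 entries with a count. Lengths are those implied.

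Counts were tested in R 4.3.3 with edgeR 4.0.16 (quasi-likelihood F test), with TMM factors and filterByExpr (13711 genes), all 9 libraries in 1 fit of group means (biological coefficient of variation 7.89%). Tests were two-sided, and Benjamini-Hochberg adjusted p under 0.05 was a call. Levels are TMM-scaled CPM. Standard errors come from the change and its F statistic, and intervals are 95%. The floor of 3 counts was 0.182 to 0.228 CPM, and totals limit precision for counting error only. The fit was tested on data simulated with known changes in far fewer genes than were called here, which does not test the choice of scaling.

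Alternatives were scaling by library size alone, factors holding the median of 19 lens fibre genes constant, DESeq2 1.42.0, limma 3.58.1 on log2(FPKM + 1) and log2(FPKM + 0.1), no filter, the compared groups alone, a length offset per library (lowess, span 0.3), a replicate block, and leaving out each library. Pairs of libraries within a group differed by 2.61 to 4.75 times sampling noise. Members and gene lists were chosen with earlier results of these data known. Named are all 39 members, up to 3 called genes with the smallest p of each further list, and genes said to be chosen otherwise. Some genes that this rule takes are not reported here. Positions are from GENCODE M21 (GRCm38) and promoters from RefSeq (GRCm38.p6).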

Additional observations from a re-analysis of the deposited data

How the results depend on the processing

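All genes called and repair genes called kept within 1.5 times their reported counts in the alternatives run, except that all genes called with EGCG against aged control were 5078 under fibre scaling, and repair genes called there ranged from 2 to 4 when leaving out 1 library. All genes called, leaving out 1 library, ranged from 8960 to 9666 with age, 2803 to 3247 with EGCG and 8009 to 8916 for EGCG against young control, and repair genes called from 21 to 24 with age and 20 to 24 in the last. Same-numbered libraries of different groups correlated with r of −0.02 to 0.03 in their deviations from group means, and 4 of 9 libraries correlated best with their own number. No pairing by number was seen, but so few libraries a group cannot exclude it, and the labels do not state it. With the replicate number as a block 24, 4 and 23 repair genes and 9451, 3338 and 8694 of all genes were called. Scaling reversed single genes with age: under library-size scaling Lig3 (−0.023), Ddb1 (−0.29, called) and Msh6 (−0.0044), under fibre scaling Lig3 (−0.035), Xrcc1 (−0.26, called), Ddb1 (−0.31, called) and Msh6 (−0.017), in limma on log2(FPKM + 1) Lig3 (−0.016), Xrcc1 (−0.21, called), Ddb1 (−0.29, called) and Msh6 (−0.0014), and on log2(FPKM + 0.1) Lig3 (−0.019), Xrcc1 (−0.24, called), Ddb1 (−0.29, called) and Msh6 (−0.0012). With the length trend removed Atr (0.0099), Trp53bp1 (0.15, called), Mre11a (0.11) and Prkdc (0.15) turned positive. With EGCG against aged control Xpa was 0.013 under fibre scaling. For EGCG against young control Ddb1 was −0.0075 under library-size scaling and −0.008 and −0.0081 in the limma fits, and Trp53bp1 was 0.031 with the length trend removed. The cause was not tested. Genes with few counts, such as Chek1, Chek2, Ung and Mutyh, are limited by depth.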
